A study of Mus musculus with 8 samples.

Results

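The mitochondrial ribosomal protein genes are the nuclear genes whose symbols start with Mrpl or Mrps followed by a number. They were taken from the probe sets that the platform annotation gives a single symbol, which yielded 76 genes on 156 probe sets, of 18193 genes named in this way. Where a gene had several probe sets, the brightest over the 8 arrays stood for it. Of the 76 genes, 49 encode proteins of the large ribosomal subunit and 26 proteins of the small subunit, while Mrps36 was first named as a small-subunit protein and has since been placed in the alpha-ketoglutarate dehydrogenase complex. Mrps18a and Mrps30 carry a small-subunit name and sit in the large subunit. Mrpl30 and Mrpl53 were covered only by probe sets with several symbols and were not analysed here.

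RNA came from leukemic spleen cells of mice that expressed CBFb-SMMHC, a leukemia fusion of a core-binding factor subunit and a smooth muscle myosin heavy chain, or a shortened form of it. The truncated group carried the shortened form, CBFb-SMMHCd179-221, and was taken 3 weeks after birth, per the labels. The full-length group carried CBFb-SMMHC and was taken 2 months after treatment with the mutagen ENU, at an age that the labels do not give. Each genotype had 4 Affymetrix arrays from 2 animals: a single one from animal 1 and 3 from animal 2. The sample labels call both groups chimeras and the series text calls the full-length mice knock-in, so the share of spleen cells with the fusion is unknown for either. Age and mutagen differ together with the genotype and cannot be told apart from it.

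Mitochondria keep ribosomes of their own, which make a small set of membrane proteins of the respiratory chain from mitochondrial DNA. All proteins of these ribosomes are encoded in the nucleus, made in the cytosol and imported, so their number has to be matched to ribosomal RNA made inside the organelle. Many of them descend from bacterial ribosomal proteins while others were added in mitochondria. In mammals the promoters of such genes often carry sites for the nuclear respiratory factors NRF1 and GABPA (an ETS factor), and for YY1, and MYC raises mitochondrial gene expression in dividing cells.

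Promoter windows from RefSeq (GRCm38.p6), with 250 bases before and 50 after the start, were found for 67 of the 76 genes, 73 windows in all. The ETS letters CCGGAAG, searched on both strands, stood in 34.25% of these windows, against 17.17% of the windows of all genes tested and 8.86% of all windows in the table. The YY1 letters AAGATGGC stood in 16.44%, against 4.43% and 2.75%. The NRF1 letters GCGCATGC stood in 10.96%, against 4.97% and 2.71%. The E-box CACGTG, the site of MYC, stood in 9.59%, against 9.94% and 7.15%. These shares count windows and not genes, so a gene with several windows counts more than once. Mrpl2, whose windows overlap, holds the E-box in each of them. The NRF1 letters overlap their own reverse complement, and letters in a window are a description and not evidence of binding. Among the 8 genes with the lowest and the 8 with the highest differences in the genotype comparison, 6 and 8 had a window. Any of the 4 motifs stood in the windows of Mrpl32, Mrpl17, Mrpl33, Mrpl39, Mrpl42 and Mrpl58 and in 1 of those of Mrpl48. Mrps31, Mrpl1, Mrpl50, Mrps9, Mrps36, Mrps25 and Mrps15 held none. The ends were picked by the differences, and motifs were common in the whole group, with the ETS letters alone in 34.25% of its windows. A link between motifs and direction was not tested. The 4 windows with motifs below were picked from these genes because they hold the letters, and those of Mrpl1 and Mrps25 show windows at either end that do not. They lie at chr13:14612988-14613287 (minus strand), chr5:31613701-31614000 (plus strand), chr10:95501900-95502199 (minus strand), chr11:115403502-115403801 (plus strand), chr5:96209865-96210164 (plus strand) and chr6:92183974-92184273 (minus strand), in the order printed, and capitals mark any of the 4 motifs.
Mrpl32: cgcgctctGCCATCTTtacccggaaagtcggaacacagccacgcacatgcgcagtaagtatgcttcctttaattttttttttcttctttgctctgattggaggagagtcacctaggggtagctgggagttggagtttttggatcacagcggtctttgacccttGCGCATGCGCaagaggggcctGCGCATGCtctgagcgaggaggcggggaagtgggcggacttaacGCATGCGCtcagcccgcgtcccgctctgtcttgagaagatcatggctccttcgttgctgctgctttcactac
Mrpl33: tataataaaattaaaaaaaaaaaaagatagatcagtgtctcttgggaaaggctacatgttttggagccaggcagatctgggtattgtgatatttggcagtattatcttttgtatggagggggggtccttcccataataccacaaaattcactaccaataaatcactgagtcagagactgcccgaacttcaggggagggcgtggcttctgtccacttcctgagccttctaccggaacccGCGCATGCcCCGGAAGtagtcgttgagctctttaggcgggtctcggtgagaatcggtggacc
Mrpl42: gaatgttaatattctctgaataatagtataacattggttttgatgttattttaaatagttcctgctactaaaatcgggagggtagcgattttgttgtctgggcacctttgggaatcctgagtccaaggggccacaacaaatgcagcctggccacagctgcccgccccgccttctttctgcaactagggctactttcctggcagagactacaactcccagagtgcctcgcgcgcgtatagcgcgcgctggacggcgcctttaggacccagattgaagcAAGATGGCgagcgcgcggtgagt
Mrpl58: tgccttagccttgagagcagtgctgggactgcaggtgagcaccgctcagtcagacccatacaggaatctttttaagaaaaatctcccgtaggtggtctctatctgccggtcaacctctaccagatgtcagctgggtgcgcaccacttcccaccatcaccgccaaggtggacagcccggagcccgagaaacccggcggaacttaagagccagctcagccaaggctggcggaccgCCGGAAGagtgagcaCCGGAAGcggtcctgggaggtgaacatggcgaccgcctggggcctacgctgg
Mrpl1: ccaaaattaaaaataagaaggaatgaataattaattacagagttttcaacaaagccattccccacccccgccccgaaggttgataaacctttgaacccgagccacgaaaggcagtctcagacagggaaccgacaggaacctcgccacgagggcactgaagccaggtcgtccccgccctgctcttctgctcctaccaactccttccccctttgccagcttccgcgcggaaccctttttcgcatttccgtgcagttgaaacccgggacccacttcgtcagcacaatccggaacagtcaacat
Mrps25: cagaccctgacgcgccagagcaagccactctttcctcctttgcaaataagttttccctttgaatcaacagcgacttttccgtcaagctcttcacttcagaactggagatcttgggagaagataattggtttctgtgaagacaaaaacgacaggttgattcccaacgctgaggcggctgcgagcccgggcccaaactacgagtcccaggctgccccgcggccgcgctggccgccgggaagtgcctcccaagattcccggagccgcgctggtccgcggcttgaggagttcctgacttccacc
Mrpl32 holds the NRF1 letters at 3 places, once overlapping their reverse complement, and the YY1 letters once. Mrpl33 holds NRF1 and ETS letters side by side, Mrpl42 the YY1 letters and Mrpl58 the ETS letters at 2 places.

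The median log2 value of all 45101 probe sets lay between 4.75 and 4.78 on truncated and between 4.71 and 4.75 on full-length arrays, and all 76 genes exceeded 4.75, the overall median, on every array. The arrays did not group as their animal labels would have it. Over all probe sets, array 1 of full-length animal 2 correlated at 0.989 with the array of full-length animal 1, against 0.954 with both other arrays of its own animal, which correlated at 0.997 with each other. Array 1 of truncated animal 2 correlated at 0.987 with the array of truncated animal 1, against 0.976 with the other arrays of its animal. The median of 17 measured erythroid genes was 9.76 and 9.61 on the first arrays of truncated animals 1 and 2, and 8.40 and 8.44 in truncated arrays 2 and 3. It was 11.05 and 11.43 in the corresponding full-length arrays and 8.32 and 8.29 in full-length arrays 2 and 3. The median of 12 neutrophil granule genes lay between 11.47 and 11.79 on truncated arrays, and at 6.05, 6.02, 10.43 and 10.43 on full-length arrays. In these bulk samples fewer cells of a type and less RNA per cell cannot be told apart.

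Differences of the mitochondrial ribosomal genes between the genotypes were small and went both ways. Of the 76 genes 42 had higher and 34 had lower values in truncated animals, with a median difference of 0.04 log2 units (quartiles -0.14 and 0.20), against a median of -0.01 (quartiles -0.27 and 0.24) over all 11417 genes tested. The differences ran from -0.79 for Mrps28 to 0.55 for Mrps25, that is 1.73-fold and 1.46-fold in size. A difference of over 0.5 was seen in 6 of the 76 genes, or 7.89%, against 26.3% of all genes tested, and 43 genes, or 56.6%, differed by less than 0.2, against 40.7% of all genes.

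No gene of the group passed the test. At an adjusted p under 0.05 (limma on the animal means) 0 of the 76 were called, and 0% of all genes. At an unadjusted p under 0.05 the group had 0 higher and 0 lower genes, against 8.81% of all genes higher and 5.29% lower. The smallest adjusted p among the 76 was 0.370, that of Mrps28. All 4 truncated arrays lay above all 4 full-length arrays for 3 genes, Mrpl33, Mrpl42 and Mrpl48, or 3.95% against 10.3% of all genes, and below them for Mrps28, or 1.32% against 8.74%. The 95% interval of the difference stayed between -1 and 1 for 53 of the 76 genes, so a change of 2-fold lay outside it for these and inside it for the other 23.

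**Figure D1:**
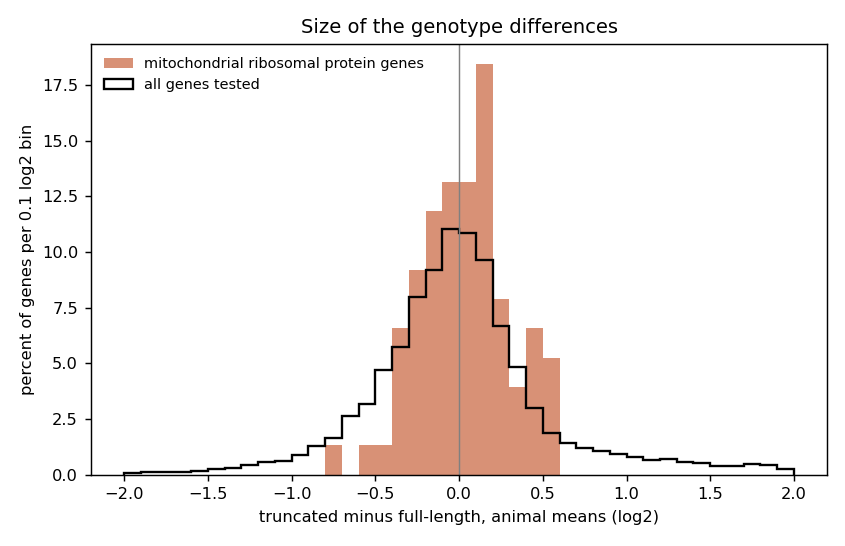
Truncated minus full-length differences of animal means (log2) for the 76 mitochondrial ribosomal protein genes (filled) and all 11417 genes tested (line), as percent of genes per bin of 0.1. The 76 genes lie between -0.79 and 0.55, while 2.23% of all genes lie beyond 2 in either direction and are not drawn.

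The direction of the group changed with single animals. With animal 2 as the only truncated mouse, 25 of the 76 genes had higher values and the median difference was -0.07, and with animal 1 as the only truncated mouse 53 had higher values and the median was 0.21. With animal 2 as the only full-length mouse 53 had higher values (median 0.13), and with animal 1 as the only full-length mouse 32 had (median -0.04). The first arrays of both full-length animals had the highest erythroid and the lowest neutrophil granule medians. Without them 58 of the 76 genes had higher values and the median was 0.18, while 50.2% of all genes then had higher values. The truncated first arrays were kept in that setting, and only arrays 2 and 3 of animal 2 stood for full-length. On arrays 2 and 3 of animal 2 in both genotypes, 39 had higher and 37 lower values (median 0.01). With animal and array number as a block on the 8 arrays, 35 had higher values, the median was -0.02, and 2 genes of the group, Mrps28 and Mrpl48, passed (2.63%, against 8.29% of all genes). That block fit treats the 3 arrays of an animal as separate samples.

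Both subunits held genes with higher and with lower values. The 49 large-subunit genes had 25 higher and 24 lower values, with a median difference of 0.03 and a range of -0.43 to 0.55. The 26 small-subunit genes had 17 higher and 9 lower values, with a median of 0.09 and a range of -0.79 to 0.55, but 16 higher and 10 lower on the first array of each animal and 11 higher and 15 lower on arrays 2 and 3 of animal 2. Of the 46 ribosomal proteins with a bacterial counterpart 24 had higher and 22 lower values (median 0.03), and of the 29 found only in mitochondria 18 had higher and 11 lower values (median 0.12). No gene of these groups passed the test, and differences between the groups were not tested.

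**Figure D2:**
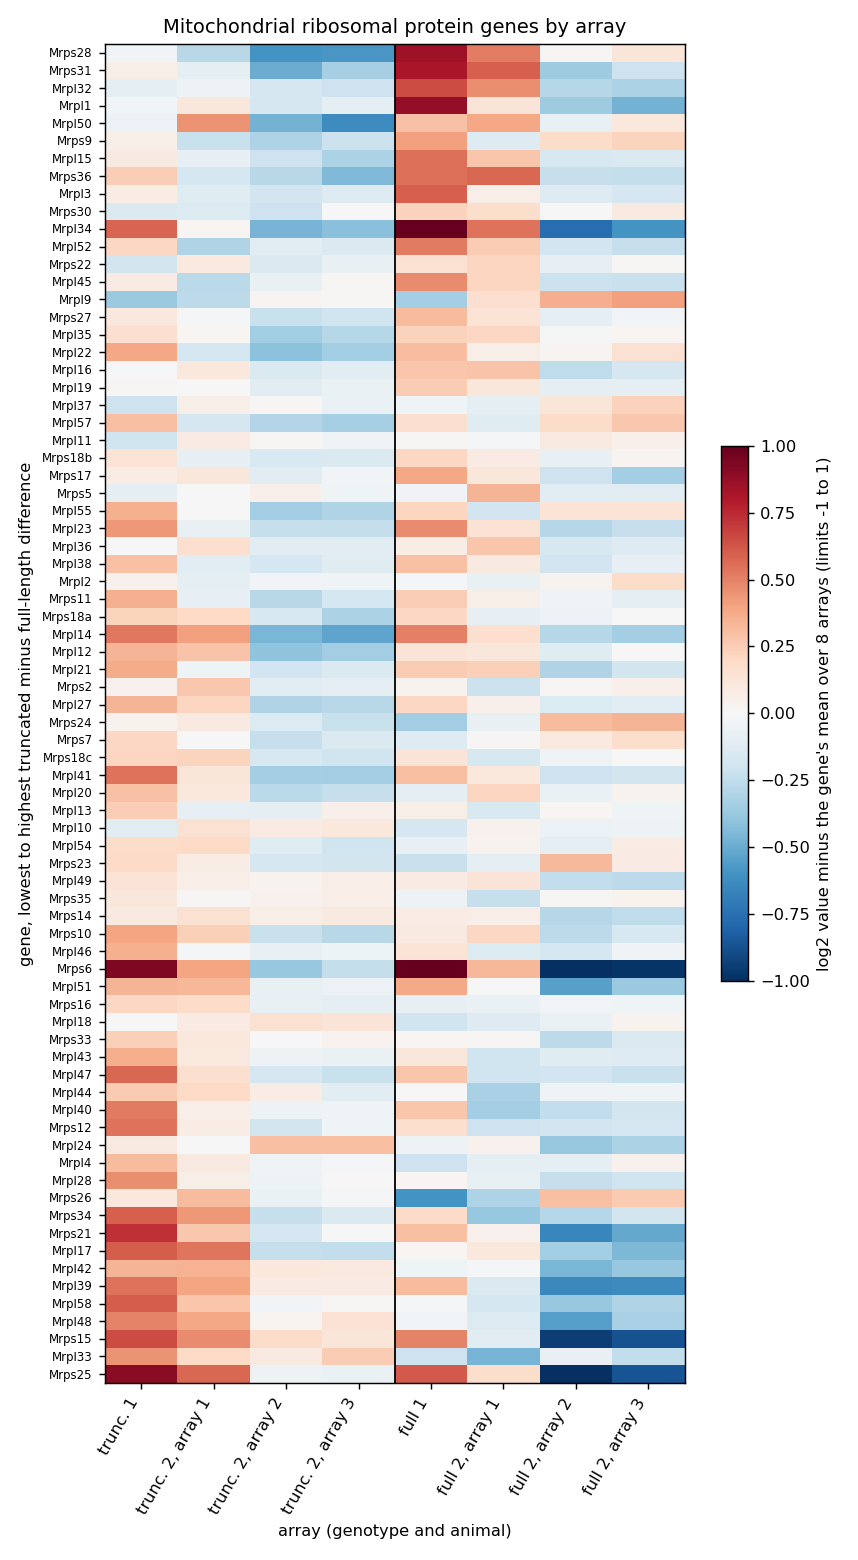
The 76 genes on the 8 arrays, truncated on the left and full-length on the right, coloured by the log2 value minus the gene's mean over the arrays (colours end at -1 and 1). Genes run from the lowest truncated minus full-length difference (Mrps28) to the highest (Mrps25), and animal 1 exceeds animal 2 in 66 of them in truncated and 61 in full-length animals.

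Mrps28, a small-subunit protein whose human gene is mutated in a mitochondrial disease, had the largest difference. It was at 8.63 in truncated animal 1 and at 8.39, 8.07 and 8.08 in the arrays of truncated animal 2, against 9.51 in full-length animal 1 and 9.18, 8.68 and 8.78 in full-length animal 2 (log2). All truncated arrays lay below all full-length arrays. The animal means were 8.41 ± 0.32 in truncated and 9.20 ± 0.45 in full-length animals (SD, n = 2 each), a difference of -0.79 (SE 0.32, 95% interval -1.60 to 0.02, limma adjusted p = 0.370). A block on animal and array number gave -0.75 (limma adjusted p = 0.0198), but it treats an animal's arrays as separate samples. On the first array of each animal the difference was -0.83 (limma adjusted p = 0.00718). Without full-length animal 1 it was -0.47. Without the first arrays of both full-length animals, those highest in erythroid genes, it was -0.32, with the truncated first arrays kept. On the arrays of animal 2 other than the first, matched between the genotypes, the difference was -0.66.

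Mrps31, a small-subunit protein found only in mitochondria, was at 7.46, 7.31, 6.90 and 7.07 on truncated arrays, against 8.22, 8.0, 7.04 and 7.19 on full-length arrays (animal 1, then the 3 arrays of animal 2, here and below). Its full-length values fell into a high pair, the first arrays of both animals, and a low pair that overlapped the truncated arrays. Its difference of animal means was -0.54 (95% interval -1.41 to 0.34, limma adjusted p = 0.595). Without the high pair it was 0.16, and on arrays 2 and 3 of animal 2 in both genotypes it was -0.13. Mrpl32, a zinc-binding large-subunit protein that in yeast and mouse is matured by the m-AAA protease, was at 9.26, 9.30, 9.19 and 9.15 on truncated arrays, against 10.01, 9.82, 9.07 and 9.04 on full-length arrays. The pattern was that of Mrps31, with a difference of -0.43 (limma adjusted p = 0.637) that turned to 0.18 without the high pair. On arrays 2 and 3 of animal 2 in both genotypes the difference was 0.12.

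Mrpl1, which forms a mobile stalk of the large subunit, was at 6.13, 6.28, 6.00 and 6.07 on truncated arrays, against 7.04, 6.29, 5.80 and 5.69 on full-length arrays. The array of full-length animal 1 stood apart above the other 7, and the difference of -0.36 was 0.19 without that animal. Mrpl50, found only in mitochondria and mutated in a human mitochondrial disease, was at 6.72, 7.22, 6.30 and 6.15 on truncated arrays, against 7.07, 7.16, 6.70 and 6.89 on full-length arrays. Its difference was -0.36 (limma adjusted p = 0.574), and its dimmer second probe set had one of -0.86.

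Mrps9 and Mrpl15, both with bacterial counterparts, had differences of -0.35 and -0.33. Mrps9 was at 8.08, 7.80, 7.71 and 7.81 on truncated arrays, against 8.44, 7.90, 8.21 and 8.25 on full-length arrays, and it kept a difference of -0.30 without the full-length arrays rich in erythroid genes, whereas that of Mrpl15 became 0.10. Mrpl15 was at 9.43, 9.25, 9.13 and 9.02 on truncated arrays, against 9.88, 9.61, 9.17 and 9.19 on full-length arrays. Every probe set of Mrpl15 above the median had a lower value in truncated animals. Mrps36, no longer counted as a ribosomal protein, was at 8.79, 8.37, 8.27 and 8.10 on truncated arrays, against 9.10, 9.12, 8.31 and 8.31 on full-length arrays. Its values overlapped and its difference was -0.32 (limma adjusted p = 0.751).

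At the upper end, Mrpl33, a small protein of the large subunit with a bacterial counterpart, was at 9.84, 9.59, 9.48 and 9.65 on truncated arrays, against 9.19, 8.93, 9.32 and 9.15 on full-length arrays. All truncated arrays lay above all full-length arrays. The means were 9.71 ± 0.19 in truncated and 9.16 ± 0.04 in full-length animals (SD, n = 2 each), a difference of 0.55 (SE 0.23, 95% interval -0.03 to 1.13, limma adjusted p = 0.379). On the first array of each animal the difference was 0.66 (limma adjusted p = 0.0310), and on arrays 2 and 3 of animal 2 it was 0.33.

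Mrpl48, found only in mitochondria, was at 8.45, 8.34, 7.99 and 8.10 on truncated arrays, against 7.93, 7.82, 7.40 and 7.63 on full-length arrays. No array of the truncated animals reached down to a full-length one, and arrays 2 and 3 were the lowest in both genotypes. The difference of animal means was 0.52 (95% interval -0.11 to 1.16, limma adjusted p = 0.450). A block on animal and array number gave 0.52 as well (limma adjusted p = 0.0352), but it treats an animal's arrays as separate samples. The second probe set of Mrpl48 had a difference of 0.63. Leaving out single animals or arrays gave 0.37 to 0.68, with no call.

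Mrpl42, also found only in mitochondria, was at 9.34, 9.35, 9.11 and 9.10 on truncated arrays, against 8.95, 8.98, 8.54 and 8.62 on full-length arrays. The arrays did not overlap, and the difference was 0.43 (95% interval -0.15 to 1.01, limma adjusted p = 0.503). Mrpl58, also known as ICT1, is a peptidyl-tRNA hydrolase of the large subunit that frees stalled chains, and it was at 8.65, 8.32, 8.02 and 8.06 on truncated arrays, against 8.04, 7.87, 7.66 and 7.75 on full-length arrays. Here only the array of full-length animal 1 reached into the truncated range, and the difference was 0.49 (95% interval -0.21 to 1.20, limma adjusted p = 0.530).

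Mrpl39, whose human gene is mutated in a mitochondrial disease, was at 9.59, 9.43, 9.13 and 9.12 on truncated arrays, against 9.36, 8.90, 8.40 and 8.41 on full-length arrays, a difference of 0.44 (limma adjusted p = 0.668). Mrpl17, with a bacterial counterpart, was at 9.20, 9.12, 8.36 and 8.34 on truncated arrays, against 8.61, 8.70, 8.25 and 8.14 on full-length arrays, a difference of 0.42 (limma adjusted p = 0.624). In both genes the first array of animal 2 lay above its arrays 2 and 3 in either genotype, in Mrpl17 by more than the genotypes differed. Mrpl17 was read from a probe set of the a_at kind, and another probe set near the median gave -0.15.

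**Figure D3:**
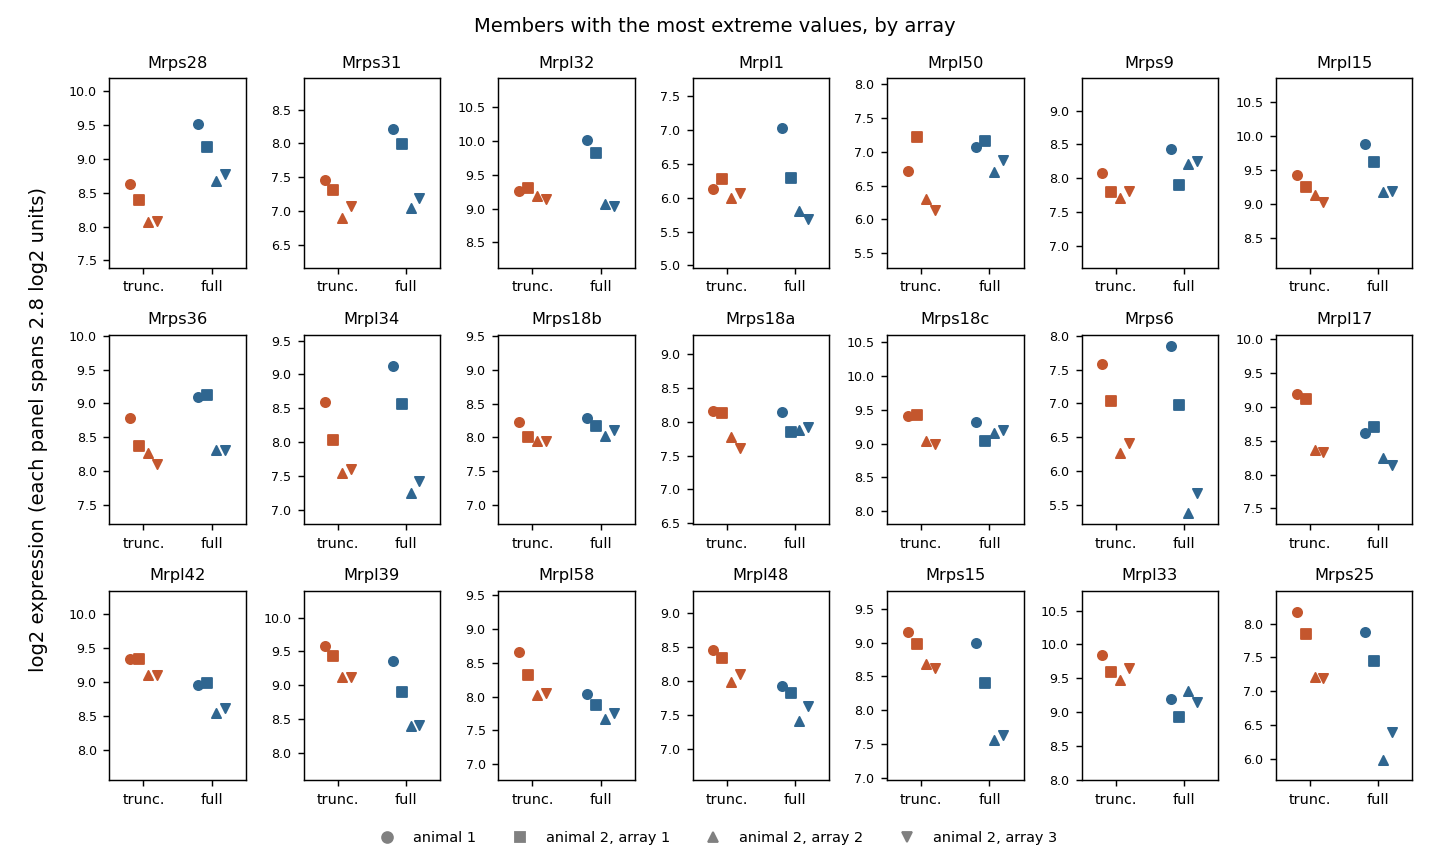
Log2 values of 21 genes (the lowest and highest differences, the widest ranges, the Mrps18 paralogs and Mrps36) on each array, truncated left of full-length, with 2.8 log2 units in each panel. Mrpl33, Mrpl42 and Mrpl48 have all truncated points above the full-length ones and Mrps28 has all below, while Mrps6 and Mrps25 spread widely within a genotype.

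The genes with the widest range over the arrays, Mrps6, Mrps25, Mrpl34 and Mrps15, spread widely within an animal. Mrps25, mutated in a human mitochondrial disease, was at 8.17, 7.84, 7.22 and 7.20 on truncated arrays, against 7.88, 7.45, 5.99 and 6.40 on full-length arrays. Arrays 2 and 3 of full-length animal 2 were the lowest by a wide margin, and the difference of 0.55 (95% interval -0.72 to 1.82, limma adjusted p = 0.732) was -0.086 without that animal. Mrps15, whose bacterial counterpart binds the small-subunit RNA early in assembly, was at 9.16, 8.98, 8.69 and 8.62 on truncated arrays, against 9.0, 8.40, 7.56 and 7.64 on full-length arrays. The pattern was the same, with a difference of 0.53 that was -0.039 without full-length animal 2.

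Mrps6, whose bacterial counterpart sits beside that of Mrps18c, spanned 2.48 log2 units over the 8 arrays, the widest range of the 76 genes. It was at 7.58, 7.04, 6.27 and 6.41 on truncated arrays, against 7.86, 6.98, 5.38 and 5.67 on full-length arrays. In both genotypes animal 1 was highest and arrays 2 and 3 of animal 2 lowest, and the difference of 0.15 was -0.36 without truncated animal 1 and -0.77 without full-length animal 2. Mrpl34, a short protein of the large subunit, was at 8.60, 8.04, 7.55 and 7.60 on truncated arrays, against 9.12, 8.56, 7.25 and 7.42 on full-length arrays. It had the same order of arrays, and its difference of -0.27 was 0.16 without truncated animal 2 and 0.42 without full-length animal 1.

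The 3 Mrps18 paralogs, which occupy different positions in the ribosome, had small differences. Mrps18b was at 8.22, 8.01, 7.94 and 7.95 on truncated arrays, against 8.29, 8.17, 8.02 and 8.12 on full-length arrays, a difference of -0.10 (95% interval -0.69 to 0.49). Mrps18a had a difference of -0.02 (-0.64 to 0.60) and Mrps18c one of 0.06 (-0.53 to 0.65). Their arrays overlapped, and leaving out single animals turned the sign of each.

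The other 55 genes of the group lay between these ends, from -0.30 for Mrpl3 to 0.41 for Mrps21, with 32 higher and 23 lower values in truncated animals. Truncated and full-length arrays overlapped in all of the 55, and the 95% interval of the difference stayed between -1 and 1 in 48 of them. Among them were Mrps30, at -0.28, and Mrps34 and Mrps26, small-subunit proteins found only in mitochondria, at 0.35 each, and the genes named here were chosen after their values were seen.

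Within each genotype, most of the 76 genes differed between animals and arrays in the same direction. Animal 1 had the higher mean in 66 of the 76 genes in truncated animals, or 86.8% against 53.7% of all genes tested, and in 61 genes in full-length animals, or 80.3% against 49.5%. Animal 1 has a single array and the mean of animal 2 includes arrays 2 and 3, so animals and array sets are mixed in these shares. Array 1 of animal 2 lay above the mean of arrays 2 and 3 of the same animal in 67 genes in truncated animal 2 (88.2% against 54.2% of all genes), by a median of 0.20, and in 49 genes in full-length animal 2 (64.5% against 49.7%), also by a median of 0.20. The array of truncated animal 1 was the highest of all 8 in 35 genes and that of full-length animal 1 in 20, while array 2 of full-length animal 2 was the lowest in 21 and array 2 of truncated animal 2 in 16. The median over the 76 genes was 8.63, 8.49, 8.40 and 8.41 on truncated arrays, against 8.67, 8.58, 8.38 and 8.42 on full-length arrays. Markers of other cells also differed along this split, but not always alike in both genotypes. Erythroid genes were higher on array 1 than on arrays 2 and 3 of animal 2 in 13 of 17 genes in truncated animal 2 (median 0.25; Trim10, at -0.97, and Sptb, at -0.59, went the other way) and in 17 of 17 in full-length animal 2 (median 2.44). Genes of dividing cells were higher there in 9 of 12 genes in truncated (median 0.20) and 12 of 12 in full-length animal 2 (median 0.42). Of 6 progenitor genes 2 were higher on array 1 in truncated and 1 in full-length animal 2 (medians -0.33 and -0.76). The progenitor receptor Kit differed by -2.32 log2 units in truncated and -2.61 in full-length animal 2, and Cd34 by 2.03 and -1.92. Of 12 neutrophil granule genes 4 were higher there in truncated (median -0.09) and 0 in full-length animal 2 (median -3.37). Their part in the pattern was not tested.

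Because of this split the genotypes were also set against each other within matching arrays. On the first arrays of animals 1 and 2, 44 of the 76 genes had higher and 32 lower values in truncated mice, with a median difference of 0.13. On arrays 2 and 3 of animal 2, 39 had higher and 37 lower values, with a median of 0.01. The sign was the same on both sets for 43 genes, or 56.6%, against 57.4% of all genes. A fit on the first array of each animal called 5 of the 76 genes, or 6.58%, against 26.9% of all genes. Mrps26, found only in mitochondria, was at 8.98, 9.19, 8.81 and 8.86 on truncated arrays, against 8.28, 8.56, 9.18 and 9.13 on full-length arrays. Its difference was 0.66 on the first arrays (limma adjusted p = 0.0289) and -0.32 on arrays 2 and 3, and without full-length animal 1 it was 0.0081. Mrps31 had a difference of -0.72 on the first arrays (limma adjusted p = 0.0161) and of -0.13 on arrays 2 and 3. Mrpl32 had -0.64 (limma adjusted p = 0.0319) and 0.12, so it turned its sign like Mrps26. Mrps28 and Mrpl33 were called on the first arrays as well and had differences of -0.66 and 0.33 on arrays 2 and 3. That fit leaves out arrays 2 and 3 of animal 2. Among the full-length arrays it keeps those with the highest erythroid and the lowest neutrophil granule medians.

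**Figure D4:**
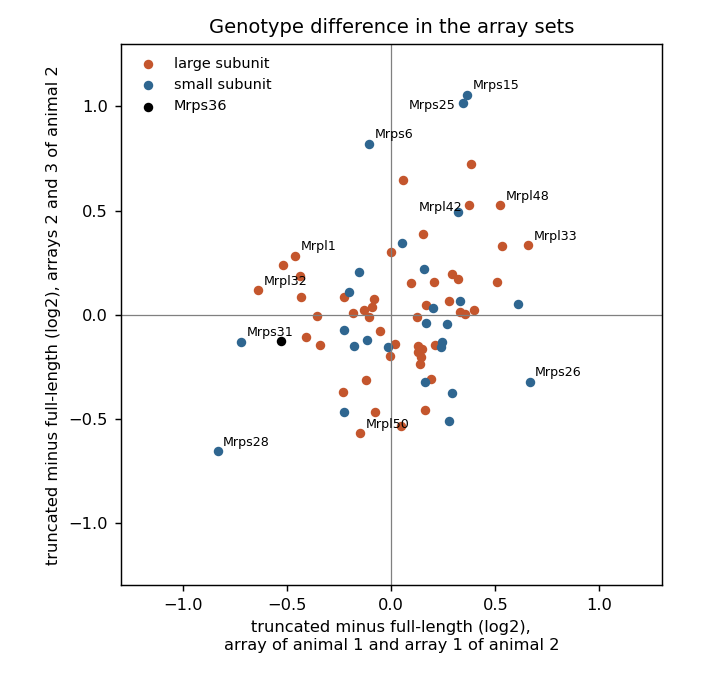
Truncated minus full-length difference (log2) of each of the 76 genes on the first arrays of both animals (horizontal axis) and on arrays 2 and 3 of animal 2 (vertical axis). Genes fall in all 4 quadrants, 43 of them with the same sign on both axes.

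Genes with several probe sets gave a check of single values. Of 156 probe sets of the group 129 were brighter than the median probe set, and 31 genes had more than 1 of these. In 20 of the 31 all probe sets had a difference of the same sign, in 11 the signs differed, and in 6 the differences were more than 0.5 apart. Mrps15 had 0.53 and 0.43 on its bright probe sets and -0.32 on a dim one, and Mrps25 had 0.55 on the bright one and -0.28 on a dim one.

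Other parts of the mitochondrial translation apparatus are described by lists chosen with earlier results of these data known. None of their genes passed the test, and at an unadjusted p under 0.05 there was 1 gene with lower values each among the translation factors, the synthetases and the regulators and 1 with higher values among those for mitochondrial DNA. Of 4 ribosomal proteins with other names 2 had higher and 2 lower values in truncated animals, with Dap3, a GTP-binding small-subunit protein, at -0.44 and Gadd45gip1 at -0.33. On the first arrays all 4 had lower values, and on arrays 2 and 3 of animal 2 there were 3 higher and 1 lower. Of 15 translation factors and related proteins 8 had higher and 7 lower values (median 0.09), and on arrays 2 and 3 of animal 2 there were 6 higher and 9 lower. Guf1, an elongation factor of the LepA type, averaged 5.32 ± 0.15 in truncated and 6.00 ± 0.20 in full-length animals (SD, n = 2 each), and the initiation factor Mtif2 and the elongation factor Gfm1 had differences of -0.50 and -0.49.

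More genes had lower values in the lists for tRNA charging, ribosome assembly and mitochondrial DNA. Of 20 aminoacyl-tRNA synthetases and related enzymes 6 had higher and 14 lower values (median -0.13), and 7 and 13 on arrays 2 and 3 of animal 2, with Kars, which serves the cytosol and mitochondria, at 9.89 ± 0.14 in truncated and 10.76 ± 0.05 in full-length animals (limma adjusted p = 0.188). Of 24 assembly factors 5 had higher and 19 lower values (median -0.26), with 5 and 19 on the first arrays and 7 and 17 on arrays 2 and 3 of animal 2. All truncated arrays lay below the full-length ones for 5 of these 24 genes, or 20.8%, against 8.74% of all genes. The same held for 2 of 15 translation factors (13.3%), 3 of 20 synthetases (15.0%) and 2 of 11 regulators (18.2%). It also held for 1 of 13 genes for mitochondrial DNA (7.69%) and 0 of the 4 ribosomal proteins with other names. The 5 assembly factors included Mterf3, an inhibitor of mitochondrial transcription that also acts in assembly, at -0.53. They also included Afg3l2, a subunit of the m-AAA protease, at -0.47. Of 13 genes for mitochondrial DNA upkeep and transcription 2 had higher and 11 lower values (median -0.21). This direction was that of the first arrays, with 1 higher and 12 lower (median -0.23), and it turned on arrays 2 and 3 of animal 2, with 9 higher and 4 lower (median 0.02). Among these genes were Tfam, which packs and transcribes mitochondrial DNA, at 8.06 ± 0.03 in truncated and 8.65 ± 0.30 in full-length animals and the polymerase Polg with a difference of 0.59.

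**Figure D5:**
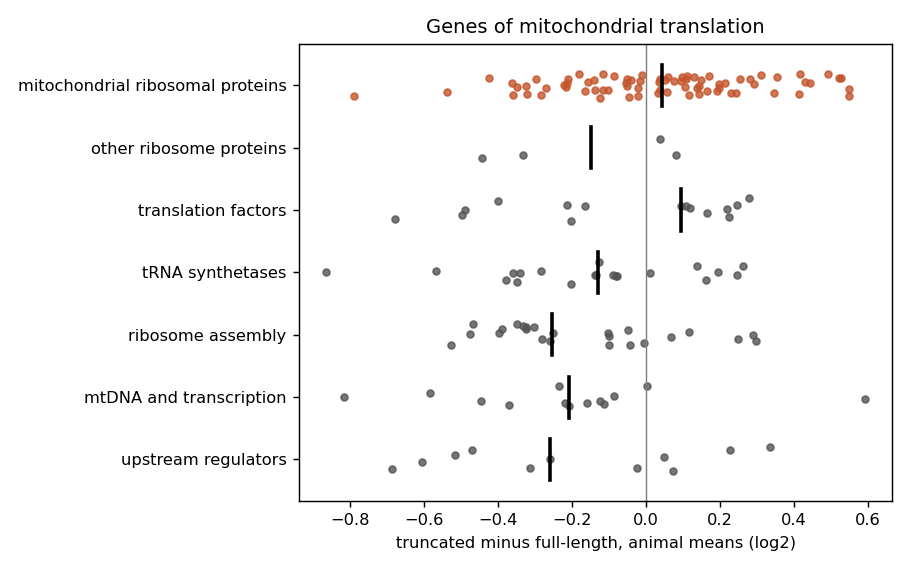
Truncated minus full-length differences (log2) of each gene in the mitochondrial ribosomal group and 6 related lists, with a black bar at each median. The medians are 0.04 for the 76 genes and -0.26 for the assembly factors and for the upstream regulators.

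Of 11 regulators of mitochondrial gene expression 4 had higher and 7 lower values in truncated animals (median -0.26). The first arrays gave 3 higher and 8 lower (median -0.37). Arrays 2 and 3 of animal 2 gave 4 higher and 7 lower (median -0.07). Myc was at 8.66, 9.12, 8.61 and 8.58 on truncated arrays, against 9.38, 9.45, 9.39 and 9.41 on full-length arrays. The groups did not overlap, and the difference of -0.69 (95% interval -1.23 to -0.14) had a limma adjusted p of 0.256. Gabpa had a difference of -0.61, the coactivator Pprc1 one of -0.52, and Nrf1 one of -0.47, each with a 95% interval that held 0. On arrays 2 and 3 of animal 2 their differences were -0.07, -0.18 and -0.29. Among the 4 regulators with higher values were Ppargc1b, at 0.34, and Esrra, at 0.23. All truncated arrays of Esrra lay above the full-length ones.

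Cytosolic ribosomal proteins, the counterpart in the main translation machinery, had 23 higher and 20 lower values among 43 genes tested (median 0.02), and animal 1 was the higher one in 20 of them in truncated and 19 in full-length animals. Oxidative phosphorylation subunits, whose mitochondrial partners are made by the mitochondrial ribosome, had 46 higher and 26 lower values among 72 genes (median 0.11). There were 55 higher and 17 lower on the first arrays (median 0.17), and on arrays 2 and 3 of animal 2 the direction turned, with 30 higher and 42 lower (median -0.05). In this group animal 1 was the higher one in 56 in truncated and 52 in full-length animals. The shares for animal 1 were therefore 86.8% and 80.3% in the mitochondrial ribosomal group, 77.8% and 72.2% in the oxidative phosphorylation group and 46.5% and 44.2% in the cytosolic group, in truncated and full-length animals in each case. These shares mix animals with array sets, since the mean of animal 2 includes its arrays 2 and 3. Genes of dividing cells gave 8 higher and 4 lower values among 12 (median 0.08), and 10 and 2 on arrays 2 and 3 of animal 2. Against these small shifts, the 12 neutrophil granule genes all had higher values in truncated animals (median difference 3.43) and 16 of 17 erythroid genes had lower values (median -0.90). On arrays 2 and 3 of animal 2 alone the erythroid genes gave 10 higher and 7 lower values (median 0.14), and the part of these cells in the ribosomal values was not tested.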

How the data were processed

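Spleen RNA of 2 animals per genotype was measured on 8 Affymetrix arrays. The authors deposited log2 values for 45101 probe sets, summarised with RMA per the submitters' processing notes, and the base of 2 was inferred from their range. RMA draws dim probe sets together, so differences of dim genes are understated, and the number of arrays limits the precision. In the platform annotation 34945 probe sets had 1 symbol, 932 several and 9160 none, with 64 controls apart, and only those with 1 symbol were used. The members and lists were chosen with earlier results of these data known.

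Arrays were averaged per animal, since nothing says that they were separate extractions. The p-values rest on the spread between these animals, drawn toward a variance shared by all genes in the fit. That spread mixes animals with array sets, since animal 1 has a single array and the mean of animal 2 includes arrays 2 and 3. Genes at or under 4.75 (the overall probe set median) in more than 2 animals were dropped, leaving 11417. Genotypes were compared as truncated minus full-length in limma (version 3.58.1, R 4.3.3; lmFit and eBayes) (2 residual and 3.24 prior degrees of freedom), with Benjamini-Hochberg adjustment over all genes kept. The smallest two-sided p that exact permutation of the 4 animals allows is 0.333. The fit was tested on simulated data with independent animals. These held no split between arrays of an animal, so the test does not cover the split seen here.

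Deviations from the genotype mean correlated between same-numbered arrays of the genotypes at 0.30, 0.14, 0.23 and 0.21. Arrays with different numbers were not compared in this way, so these values do not show a pairing by number. A fit with the number as a block was run as an alternative, although the labels tie the numbers to no litter or day. Named genes are the 8 lowest and 8 highest differences, the 4 widest ranges over arrays, the Mrps18 paralogs, Mrps36, and genes whose probe sets disagree in sign by over 0.3 each way. Genes of the other lists are examples, and some with larger differences, such as Mterf2 (-0.82), are not described. Alternatives were other fits, probe set rules, filters, centring, and leaving out animals and arrays.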

Additional observations from a re-analysis of the deposited data

How the results depend on the processing

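With 2 animals per genotype, 0 of the 76 genes were called at an adjusted p under 0.05 (limma), and this held in all alternatives except 2. The replicate block on the 8 arrays called 2 of the group and 946 of all genes, and the first array of each animal alone called 5 and 3079. The count of all genes called, 0 in the comparison of animal means, was 345 with the animal as a random block, 1 with the filter at the 60th percentile, 3 where the robust prior followed intensity, and 2 with centred arrays. Leaving out single animals or arrays gave 0 to 620 genes, the most (620) when full-length animal 2 was missing, and 330 or 421 when only its array 2 or 3 was. Genes of the group with higher values in truncated animals numbered 25 to 53 when single animals or arrays were left out, those with lower values 23 to 51, and the median difference ran from -0.071 to 0.21. Without the first arrays of both full-length animals, but with the truncated ones kept, 58 had higher and 18 lower values (median 0.18). The mean over all probe sets of a gene gave 36 higher and 40 lower values.

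Of 419 values of the 21 named genes under 20 alternatives 386 kept direction and side of the threshold, 27 changed sign and 6 became called. Without these first full-length arrays the difference was 0.16 for Mrps31, 0.18 for Mrpl32, 0.37 for Mrpl1, 0.10 for Mrpl15, 0.21 for Mrps36, 0.83 for Mrpl34, 0.10 for Mrps18a and 0.029 for Mrps18b. On arrays 2 and 3 of animal 2 in both genotypes the values were -0.13, 0.12, 0.28, -0.11, -0.13, 0.24, -0.20 and -0.12, in the same order. With the mean over probe sets Mrps25 was at -0.056, with probe sets not of the s_at, x_at or a_at kind Mrpl17 at -0.15, and on the first arrays alone Mrps6 at -0.11 and Mrps18a at 0.15. Leaving out single animals or arrays gave -0.92 to 0.19 for Mrpl1, -0.086 to 1.18 for Mrps25, -0.039 to 1.09 for Mrps15, -0.77 to 1.07 for Mrps6, -0.96 to 0.42 for Mrpl34, -0.17 to 0.14 for Mrps18a, -0.23 to 0.027 for Mrps18b and -0.072 to 0.19 for Mrps18c. The cause of these changes was not tested. Mrps28 kept its sign throughout, from -1.11 to -0.47 when single animals or arrays were left out. It was at -0.32 without both first full-length arrays and at -0.66 on arrays 2 and 3 of animal 2 in both genotypes. The replicate block changed no other call among the 76 genes than those of Mrps28 and Mrpl48.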
